A study of Mus musculus with 4 samples.

Results

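The 5 genes of the CXCR3 and CXCR6 chemokine axes were followed across the cell classes and the 4 libraries of a single-cell RNA sequencing experiment on tumour leukocytes. They are the ligands Cxcl9, Cxcl10 and Cxcl16 and the receptors Cxcr3 and Cxcr6, 5 of the 32285 genes in the matrix. They were picked by symbol, with earlier results of these data known. Cxcl9 was highest in macrophage- or monocyte-like and dendritic-like cells. Its summed level there was higher in both libraries that received the STING agonist and lower in the library with the LTbR agonist alone. In dendritic-like cells the sign for the combination depended on how clusters were weighted. In macrophage- or monocyte-like cells the difference for the STING agonist alone was much smaller when clusters were weighted equally. Cxcl16 in macrophage- or monocyte-like cells was lower in both libraries that received the LTbR agonist, though for the combination the sign depended on how clusters were weighted. Cxcr3 in T-like cells was higher in the STING agonist library than in the other 3 libraries, and Cxcr6 in T-like cells was lowest in the LTbR agonist library.

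CXCL9 and CXCL10 are small secreted chemokines that bind CXCR3, a G protein-coupled receptor of activated T cells, NK cells and plasmacytoid dendritic cells. Both genes are classical interferon targets, with CXCL9 depending mainly on interferon-gamma and CXCL10 also answering type I interferon and NF-kB. CXCL16 is made as a membrane-bound protein with a chemokine domain on a mucin stalk, can be shed by the metalloproteinases ADAM10 and ADAM17, and binds CXCR6, a receptor of effector and tissue-resident T cells. In tumours, macrophages and dendritic cells are the usual source of these ligands and T cells the usual bearers of the receptors.

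Live CD45+ leukocytes were sorted from subcutaneous tumours of male C57BL/6 mice, grown from KPC cells, a pancreatic cancer line from genetically engineered mice that carry Pdx-Cre. The mice were untreated, received 1 intratumoral injection of a STING agonist (ADU-S100, a cyclic dinucleotide), received repeated intraperitoneal injections of an LTbR agonist (the antibody 4H8 against the lymphotoxin-beta receptor), or received both (combination). Per the paper, the cells were taken on the day of tumour resection. This was weeks after the STING agonist injection and days after the last antibody dose, so the levels do not describe the first hours after dosing. Each group is 1 library of pooled tumours, so no comparison between groups has a replicate or a test, and a difference between libraries cannot be told apart from a difference between treatments. Levels are UMIs of a gene per 1000000 UMIs of the class in that library (CPM), brackets hold 95% intervals (exact Poisson for levels), and every interval covers counting error only. Ratios are log2 ratios of CPM + 10 to the untreated library, and they understate differences of genes near or below 10 CPM.

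After the study's cell filter 23011 of 24839 barcodes remained, with 3748 to 7147 cells per library and median depths of 7094, 6748, 5750 and 5877 UMIs per cell in the untreated, STING agonist, LTbR agonist and combination libraries, the order used throughout. A total of 528 cells carried a barcode found in more than 1 library. Classes were rebuilt from marker genes without the 5 members and without the genes of their pathways. Macrophage- or monocyte-like cells numbered 2969, 1428, 2790 and 1746, dendritic-like cells 554, 183, 352 and 184, T-like cells 1949, 1372, 2096 and 2014 and NK-like cells 371, 166, 622 and 299. Cells of 2 unnamed clusters, 1 of them led by Areg and Foxp3, and of 6 sub-clusters set aside made up 6.51 to 9.33% of a library and entered no class. In the cluster led by Areg and Foxp3, 65.5% of 583 cells had a doublet score (Scrublet) of at least 0.2.

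All 5 genes are protein-coding in the mm10 assembly of the files. Cxcl9 (ENSMUSG00000029417, chr5:92321347-92328079, minus strand) and Cxcl10 (ENSMUSG00000034855, chr5:92346638-92348889, minus strand) are neighbours with 18558 bases between them. Cxcl16 is ENSMUSG00000018920 at chr11:70453983-70459984, minus strand. Cxcr3 is ENSMUSG00000050232 at chrX:101731535-101734269, minus strand, and Cxcr6 is ENSMUSG00000048521 at chr9:123806475-123811760, plus strand. Cxcl10, Cxcl16 and Cxcr6 overlap Art3, Zmynd15 and Fyco1 on the opposite strand, sharing 133, 552 and 0 exon bases. The sources used here do not state how strand was handled in counting. Art3 was at 8.06 to 11.1 CPM and Zmynd15 at 105, 78.2, 54.05 and 59.1 CPM in macrophage- or monocyte-like cells, and Fyco1 at 87.5, 78.2, 62.2 and 63.7 CPM in T-like cells.

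The promoters of the neighbouring CXCR3 ligands are shown because the 2 genes answer interferon and differed from each other across the libraries below. RefSeq promoter sequences (GRCm38.p6, 250 bases before to 50 after the gene start) were matched for 4 of the 5 members, all but Cxcl16. Each run below is 300 bases long on the gene's minus strand, 5′ to 3′, with capitals marking matches to 3 motifs.
Cxcl9 promoter, chr5:92328030-92328329: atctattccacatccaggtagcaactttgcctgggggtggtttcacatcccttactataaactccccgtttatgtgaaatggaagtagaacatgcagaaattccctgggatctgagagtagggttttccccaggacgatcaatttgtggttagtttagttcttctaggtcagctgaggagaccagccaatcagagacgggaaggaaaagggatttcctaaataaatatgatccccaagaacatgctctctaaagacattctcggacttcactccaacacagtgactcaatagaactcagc
Cxcl10 promoter, chr5:92348840-92349139: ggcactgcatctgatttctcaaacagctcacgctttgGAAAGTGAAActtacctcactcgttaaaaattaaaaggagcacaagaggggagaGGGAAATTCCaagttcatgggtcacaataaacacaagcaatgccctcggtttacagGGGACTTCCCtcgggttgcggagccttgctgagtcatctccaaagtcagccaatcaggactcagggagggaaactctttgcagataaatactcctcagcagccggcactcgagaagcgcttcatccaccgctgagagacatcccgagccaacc
Both strands were searched for the core of the interferon-stimulated response element (GAAANNGAAA), the gamma-interferon activation site (TTCNNNGAA) and the NF-kB consensus, which do not overlap each other where they matched. The Cxcl10 window held 1 response element core, GAAAGTGAAA, from 213 to 204 bases before the start, and 2 NF-kB matches, GGGAAATTCC from 159 to 150 and GGGACTTCCC from 103 to 94 bases before it. The Cxcl9, Cxcr3 and Cxcr6 windows held 0 matches, which says only that these letters are not in these 300 bases. Among 32851 promoters of the same length, 3.44% held the response element core, 8.30% the activation site and 4.51% the NF-kB consensus.

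The ligands were found mainly in myeloid classes and the receptors in lymphoid classes. Macrophage- or monocyte-like cells held 77.9, 86.4, 79.1 and 81.02% of all Cxcl9 UMIs, 81.2, 76.1, 76.9 and 79.8% of Cxcl10 UMIs and 73.99, 82.5, 75.2 and 75.2% of Cxcl16 UMIs. Dendritic-like cells held 13.8, 7.97, 7.25 and 7.42% of Cxcl9 UMIs. T-like cells held 64.7, 78.9, 68.2 and 71.3% of Cxcr3 UMIs and 86.03, 93.8, 83.2 and 90.1% of Cxcr6 UMIs. Cells in no class held 12.4, 10.7, 13.1 and 13.4% of the Cxcr3 UMIs, and most of the rest lay in plasmacytoid-like cells (9.95, 3.87, 6.08 and 3.18%) and NK-like cells (8.47, 4.56, 9.11 and 6.89%). The order of classes was the same in the 4 libraries for Cxcl9 down to the neutrophil-like cells, whereas Cxcl10 was higher in neutrophil-like than in macrophage- or monocyte-like cells in the STING agonist and combination libraries and lower in the other 2.

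**Figure D1:**
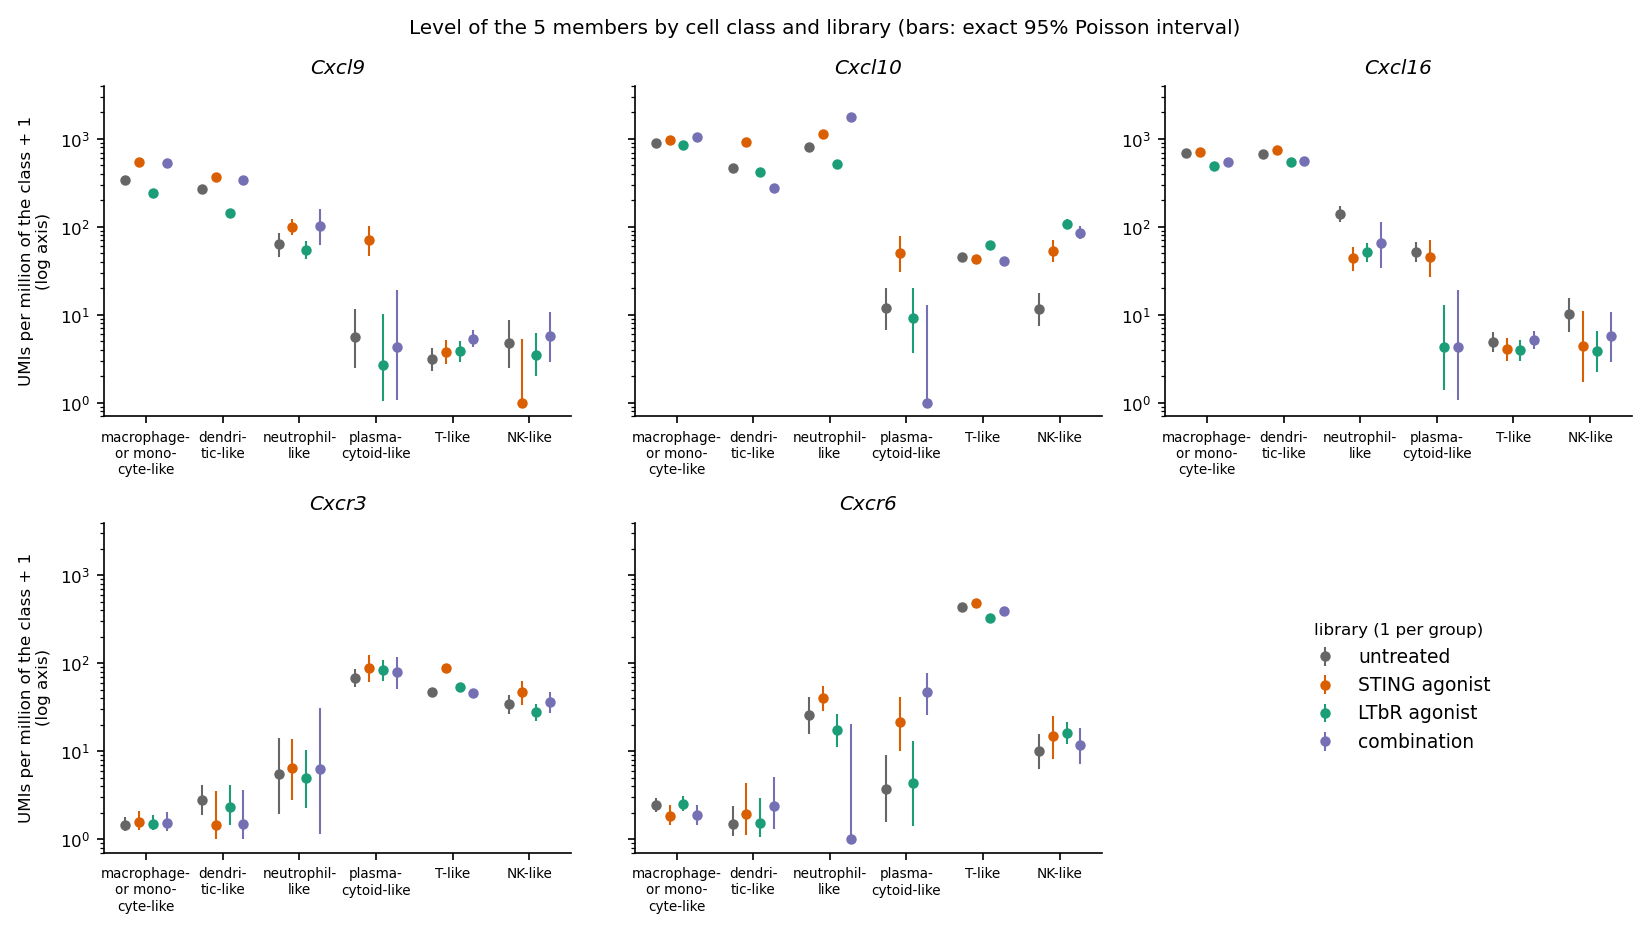
Level of each of the 5 genes (CPM of the class + 1, log axis) in 6 cell classes, 1 point per library with its exact 95% Poisson interval. The ligands sit in the macrophage- or monocyte-like, dendritic-like and neutrophil-like classes, Cxcr3 in plasmacytoid-like, T-like and NK-like cells, and Cxcr6 in T-like cells, where it ranged from 327 to 478 CPM.

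Cxcl9 in macrophage- or monocyte-like cells was higher by 0.68 and 0.63 on the log2 scale in the STING agonist and combination libraries and lower by 0.48 in the LTbR agonist library. Its level was 340.3 (333 to 347) in the untreated, 552 (540.4 to 564) in the STING agonist, 240.5 (234 to 247) in the LTbR agonist and 533 (521 to 545) in the combination library. The 2 libraries with the STING agonist were above the untreated library and the LTbR agonist library was below it, and neither set of counting intervals overlapped that of the untreated library. The ratio to untreated was 0.68 (0.62 to 0.74) for STING agonist, -0.48 (-0.55 to -0.42) for LTbR agonist and 0.63 (0.57 to 0.69) for combination. Of the genes tested in each comparison, 99.9%, 1.002% and 98.6% had a lower ratio than Cxcl9. The combination stood at -0.049 (-0.11 to 0.012) against the STING agonist and 1.12 (1.05 to 1.18) against the LTbR agonist, and exceeded the sum of both single log2 ratios by 0.43 (0.31 to 0.56). Given equal weight for each cluster of the class, the STING agonist ratio was 0.14 and the LTbR agonist ratio -0.30.

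No ligand passed a 2-fold difference from untreated in macrophage- or monocyte-like cells. Over all genes tested there, 0.00951% were at least 2-fold higher and 0% at least 2-fold lower with the STING agonist, 0.206% and 0.0655% with the LTbR agonist, and 0.463% and 0.113% with the combination. The share of these cells with a Cxcl9 UMI was 29.6, 40.4, 22.5 and 36.4%, and 13.9, 21.7, 10.4 and 19.7% after each cell was thinned to 1000 UMIs. In T-like cells, which should lack it, the thinned shares were 0.212, 0.2996, 0.398 and 0.668%. Median depths were 8830, 10614, 8060.5 and 8008 UMIs in the former and 4429, 4867, 4215 and 5006 in the latter. The shares kept the order of the levels at equal depth and lay far above those of T-like cells. Few cells carried most of the transcript, since 2.51 to 4.902% of the cells of a library held 50% of its Cxcl9 UMIs.

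**Figure D2:**
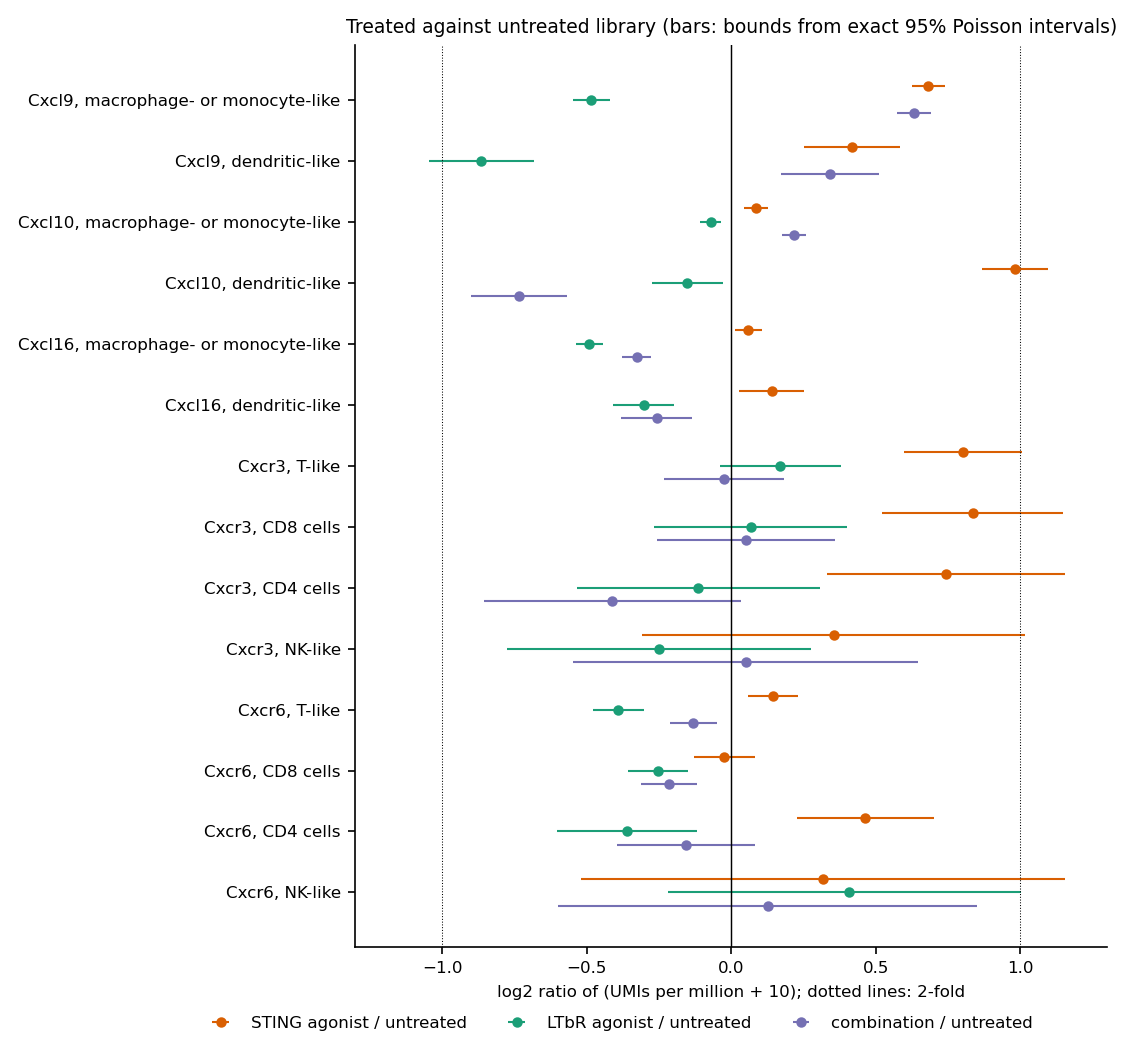
Log2 ratio of CPM + 10 in each treated library to the untreated library for the ligands in 2 myeloid classes and the receptors in T-like, CD8, CD4 and NK-like cells, with bounds from exact 95% Poisson intervals and dotted lines at 2-fold. Cxcl9 lay on opposite sides of 0 in the STING agonist and LTbR agonist libraries, and Cxcl10 in dendritic-like cells in the STING agonist and combination libraries.

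The pattern of Cxcl9 held in most sub-clusters of the class. With the STING agonist 9 of 12 sub-clusters that had at least 20 cells in both libraries were above untreated, 7 of them with an interval apart from 0. With the LTbR agonist 10 of 13 were below, 7 with an interval apart from 0, and with the combination 9 of 13 were above, 8 with an interval apart from 0. In C1q macrophage-like cells, marked by complement C1q genes, Cxcl9 was 350.3, 658, 463 and 701 CPM, so that the LTbR agonist library was above untreated there, at a ratio of 0.39 (0.24 to 0.54). In monocyte-like cells it was 547, 578, 347 and 1590.1 CPM, highest in the combination library. In inflammatory macrophage-like cells, named for Spp1, Inhba and Il1a among their leading genes, it was 250.3, 542, 110.2 and 249 CPM. There the ratios to untreated were 1.08 (0.89 to 1.28) for the STING agonist, -1.12 (-1.37 to -0.86) for the LTbR agonist and -0.0047 (-0.29 to 0.28) for the combination, whose interval holds 0.

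**Figure D3:**
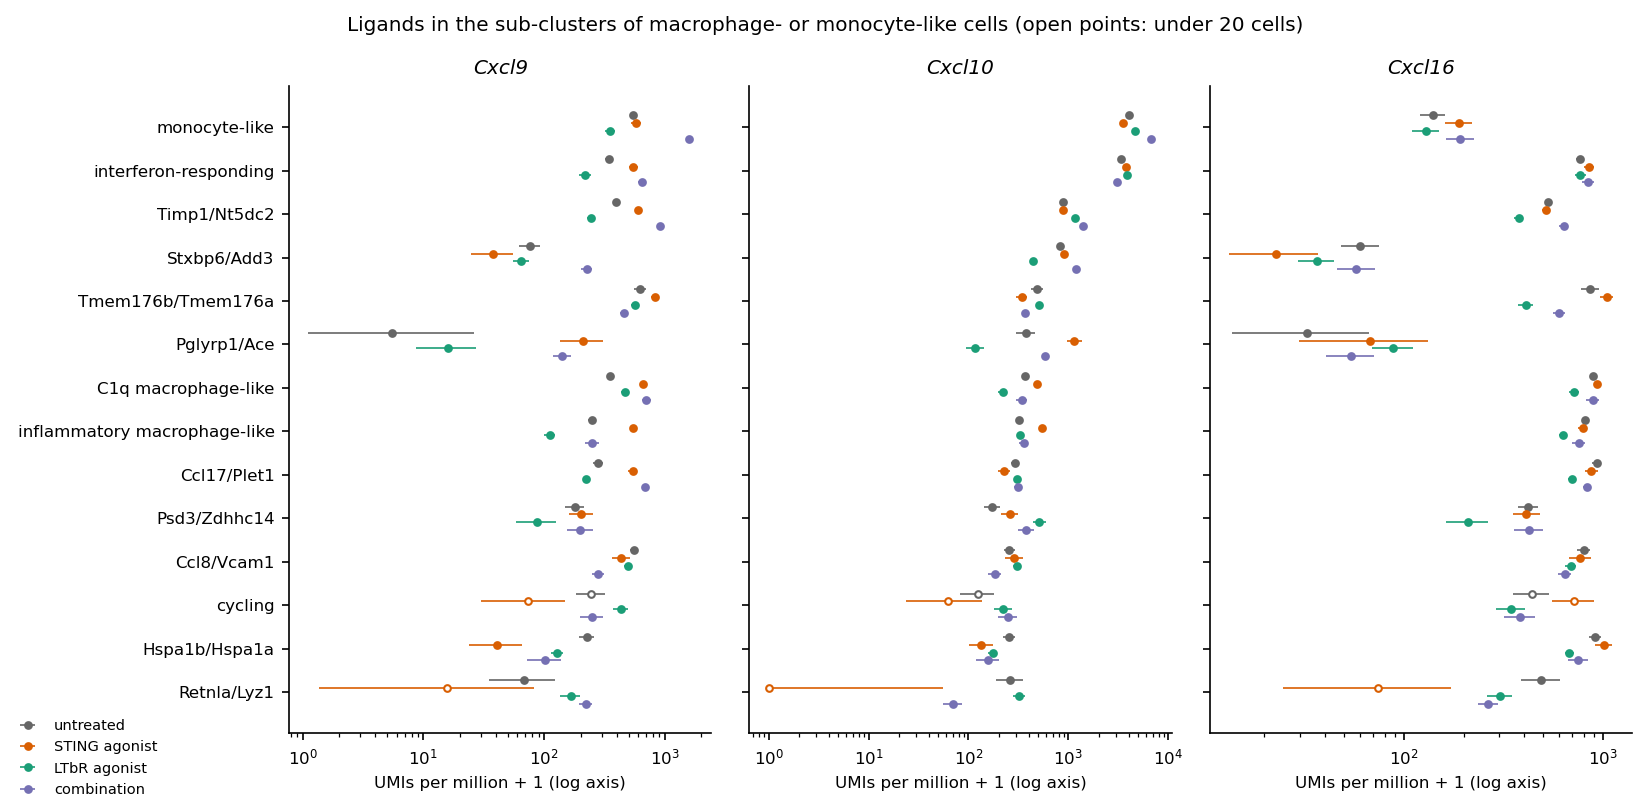
Levels of the 3 ligands (CPM + 1, log axis) in 14 sub-clusters of macrophage- or monocyte-like cells, 1 point per library with its exact 95% Poisson interval, open where a library has under 20 cells. Cxcl10 was concentrated in the monocyte-like and interferon-responding sub-clusters, where Cxcl16 of monocyte-like cells was among the lowest, at 128 to 191 CPM.

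The summed level of Cxcl9 in dendritic-like cells followed the same directions. Its level was 269 (257 to 282) in the untreated, 363 (338 to 389) in the STING agonist, 143 (132 to 156) in the LTbR agonist and 344 (319.8 to 370.02) in the combination library. The LTbR agonist library was lowest and the STING agonist and combination libraries overlapped in their intervals. Log2 ratios against the untreated library came to 0.42 (0.25 to 0.58), -0.86 (-1.05 to -0.68) and 0.34 (0.17 to 0.51). The LTbR agonist ratio was among the lowest of all genes tested in this class, with 0.09804% of genes below it. It was -0.38 without the cell filter and -1.54 with equal weight per cluster, and the combination ratio became -0.28 with equal weight per cluster. In this class equal weight joins only the cluster led by Plet1 and the cluster led by Fscn1. Only 3 dendritic sub-clusters could be compared for the combination. Cxcl9 was above untreated in 1 and below in 2, with 1 interval apart from 0 in each direction. The Slc4a11/Ly6a sub-cluster held 30, 27.5, 15.6 and 28.7% of the Cxcl9 UMIs of the class, and 49.3% of its cells scored highest for dendritic-like markers. The 14 macrophage- or monocyte-like markers summed to 508, 621, 537 and 691 CPM in dendritic-like cells. The part of these markers in the ligand levels of the class was not tested. Plasmacytoid-like cells had 1 to 27 Cxcl9 UMIs per library, and 25 of the 27 in the STING agonist library came from 1 cell.

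Cxcl10 in macrophage- or monocyte-like cells differed little between the libraries. Its level was 905 (894 to 916) in the untreated, 961 (946 to 977) in the STING agonist, 861 (849.9 to 873) in the LTbR agonist and 1054 (1038 to 1071) in the combination library. All 4 levels lay within 1.5-fold of each other, and relative to untreated they stood at 0.086 (0.045 to 0.13), -0.071 (-0.11 to -0.034) and 0.22 (0.18 to 0.26). The LTbR agonist ratio changed sign, to 0.024 as a mean of CPM per cell and to 0.23 with equal weight per cluster. Equal weight gave 0.51 for the combination and 0.033 for the STING agonist, which was 0.15 with classes from the marker score of each cell and 0.17 as a mean of CPM per cell. The share of cells with a Cxcl10 UMI at 1000 UMIs per cell was 22.6, 26.1, 21.9 and 21.6% against 1.801, 2.17, 3.93 and 2.41% in T-like cells, and 40.4, 42.6, 36.2 and 36.999% against 4.87, 5.98, 8.54 and 5.66% before thinning. The single highest cell held 317 UMIs of the gene, and 3.61 to 4.97% of cells held 50% of the UMIs of a library.

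Within the class Cxcl10 was concentrated in 2 sub-clusters. Monocyte-like cells were 5.09, 5.46, 5.02 and 4.47% of the class and held 22.5, 20.05, 26.9 and 31.9% of its Cxcl10 UMIs. Interferon-responding cells, named for Ifit and related genes, were 7.85, 7.98, 6.09 and 5.96% of the class and held 29.9, 29.3, 25.9 and 20.4%. In monocyte-like cells the level was 4038, 3528, 4627 and 6754 CPM, with ratios to untreated of -0.19 (-0.28 to -0.10), 0.20 (0.12 to 0.27) and 0.74 (0.66 to 0.82). The combination library was highest and the STING agonist library lowest. In interferon-responding cells it was 3361, 3767, 3867 and 3096 CPM, where the combination library was lowest, at -0.12 (-0.20 to -0.036). In C1q macrophage-like cells it was 367, 482, 218 and 338 CPM and highest in the STING agonist library.

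The summed level of Cxcl10 in dendritic-like cells was higher in the STING agonist library and lower in the combination library, on few cells. Its level was 462 (446 to 479.5) in the untreated, 923 (883 to 964) in the STING agonist, 415 (395 to 436) in the LTbR agonist and 274 (252 to 297) in the combination library. Relative to untreated, this gave log2 ratios of 0.98 (0.87 to 1.096), -0.15 (-0.27 to -0.030) and -0.73 (-0.90 to -0.57), and the combination stood at -1.72 (-1.89 to -1.54) against the STING agonist. No member passed 2-fold against untreated in this class, where 0.111%, 0.184% and 0.209% of genes were at least 2-fold higher and 0.0492%, 0.0245% and 0.246% lower with the STING agonist, the LTbR agonist and the combination. The STING agonist ratio was 1.12 without barcodes shared between libraries and 0.065 with equal weight per cluster, and the combination ratio was -0.23 with equal weight. It took 12, 6, 9 and 4 cells to hold 50% of the UMIs of a library. The share of cells with a UMI was 24.2, 27.3, 19.6 and 20.7%, or 11.9, 14.3, 11.2 and 10.3% at 1000 UMIs per cell, and the intervals of the shares overlap. The Timp1/Cd209a sub-cluster, named for its leading genes, held 76.2, 69.6, 73.5 and 62.97% of the UMIs with 77, 35, 43 and 19 cells. Its Cxcl10 level was 2673, 3138, 2443 and 1604 CPM.

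Cxcl10 in neutrophil-like cells was highest in the combination library, on 68 cells. The level was 809.8 (743 to 881) in the untreated, 1133 (1065 to 1204) in the STING agonist, 520.4 (481 to 562) in the LTbR agonist and 1756 (1572 to 1957) in the combination library in 227, 305, 375 and 68 cells. As log2 ratios to untreated these were 0.48 (0.27 to 0.69), -0.63 (-0.86 to -0.40) and 1.11 (0.83 to 1.38). The combination value rests on 68 cells, of which the 10 highest held 96.4% of the UMIs, and was 0.66 without the cell filter. The thinned share of cells with a UMI was 14.8, 20.3, 11.3 and 22.03%, with median depths of 2230, 2405, 2152 and 1942 UMIs. Cxcl16 was lower in all 3 treated libraries in this class, at 139 (112 to 169.99) in the untreated, 42.8 (30.4 to 58.5) in the STING agonist, 50.8 (39.1 to 64.8) in the LTbR agonist and 63.9 (33.003 to 112) in the combination library. It rests on 94, 39, 64 and 12 UMIs, with ratios of -1.495 (-2.15 to -0.84), -1.29 (-1.87 to -0.71) and -1.01 (-2.07 to -0.0081). The 14 macrophage- or monocyte-like markers summed to 1807, 932, 1627 and 2400.5 CPM in neutrophil-like cells, with 0, 0, 0 and 2 at 0. The sum was highest in the combination library, where Cxcl10 was highest but Cxcl16 was below untreated. It was lowest in the STING agonist library, where Cxcl16 was lowest but Cxcl10 was above untreated. The part of these markers in either level was not tested. With classes from the marker score of each cell the combination ratio was -2.18, and without cells of high doublet score it was -0.66. In the class, 1.38%, 0.568% and 3.24% of genes tested were at least 2-fold lower and 0.569%, 1.67% and 0.933% at least 2-fold higher.

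Few NK-like cells held Cxcl10, and its summed level was lowest in the untreated library. The level was 10.7 (6.51 to 16.5) in the untreated, 52.7 (38.6 to 70.3) in the STING agonist, 108 (96.2 to 121) in the LTbR agonist and 85.1 (70.9 to 101) in the combination library, from 20, 46, 304 and 126 UMIs. Its log2 ratios were 1.601 (0.88 to 2.28), 2.51 (2.005 to 2.99) and 2.203 (1.61 to 2.75), where 0.247% and 0.111% of genes tested were at least 2-fold higher with the LTbR agonist and the combination. With the STING agonist the 46 UMIs came from 2 cells and were under the 50 UMIs needed to enter the comparison of all genes, of which 0.0374% were at least 2-fold higher. At least 2-fold lower were 0.169%, 0.0773% and 0.148% of genes in the 3 comparisons. The 10 highest cells held 65, 100, 58.9 and 92.1% of the UMIs. Thinned shares of cells were 1.099, 1.21, 5.45 and 2.78%. In the untreated and STING agonist libraries they lay below those of T-like cells and in the other 2 slightly above. T-like cells are not free of the gene. Interferon-responding T-like cells held 5.34, 29.8, 24.5 and 21.8% of their Cxcl10 UMIs with 2.05, 3.06, 2.43 and 2.23% of the cells. The Cd163l1/Il17a sub-cluster held 19.9, 14.3, 6.75 and 31.4%, more than those cells in the untreated and combination libraries. In NK-like cells the 8 neutrophil-like markers summed to 10.1, 6.87, 452 and 4.73 CPM, with 3, 5, 1 and 5 of the 8 at 0. The 14 macrophage- or monocyte-like markers summed to 212, 166, 195 and 343 CPM there, with 1, 3, 2 and 3 at 0. Their part in the Cxcl10 level was not tested. The combination ratio was 1.39 without shared barcodes, 2.89 with a pseudocount of 1 CPM and 2.92 with equal weight per cluster, and the STING agonist ratio was 0.31 with equal weight. For NK-like cells equal weight joins only the cluster led by Gzma and the cluster led by Clnk.

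Cxcl16 was spread over more cells than the other ligands and was lower in the class as a whole in both libraries with the LTbR agonist, although the combination ratio turned above 0 with equal weight per cluster. In macrophage- or monocyte-like cells its level was 688 (679 to 698) in the untreated, 718 (705 to 731) in the STING agonist, 487 (479 to 496) in the LTbR agonist and 547 (535 to 559) in the combination library. The untreated and STING agonist libraries were close and the 2 libraries with the LTbR agonist lay below both. Against untreated the ratios came to 0.059 (0.013 to 0.11), -0.49 (-0.54 to -0.44) and -0.33 (-0.38 to -0.28), with 0.955% and 4.28% of genes below it in the last 2 comparisons. The share of cells with a UMI was 82.9, 83.1, 67.2 and 65.1%, or 44.9, 43.1, 30.01 and 32.8% at 1000 UMIs per cell, against 0.318, 0.524, 0.348 and 0.3595% in T-like cells. It took 14.8 to 20.4% of the cells to hold 50% of the UMIs.

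The make-up of the class differed between the libraries in the same places. C1q macrophage-like cells were 30.3, 27.03, 5.52 and 4.24% of the class and held 41.9, 40.6, 10.2 and 8.49% of its Cxcl16 UMIs. The Ccl17/Plet1 sub-cluster was 4.31, 4.202, 10.4 and 11.1% of the class and held 7.54, 6.496, 21.4 and 24.4%. Both had high Cxcl16, at 883, 927, 713 and 883 CPM in C1q macrophage-like cells and 925, 869, 693 and 825 CPM in the Ccl17/Plet1 sub-cluster. The Pglyrp1/Ace sub-cluster, where Cxcl16 was low at 31.8, 66.9, 87.3 and 53.2 CPM, was 1.52, 1.68, 6.06 and 10.6% of the class, and the Retnla/Lyz1 sub-cluster, at 485, 73.2, 302 and 264 CPM, was 0.674, 0.4202, 3.799 and 12.03%. Within sub-clusters, 11 of 13 were below untreated with the LTbR agonist, 10 with an interval apart from 0. With the combination 8 of 13 were below, 5 with an interval apart from 0, and 5 above, 2 with an interval apart from 0. With equal weight per cluster the LTbR agonist ratio was -0.16 and the combination ratio changed sign to 0.076, and as a mean of CPM per cell the combination ratio was -0.50. The part of the make-up of the class in the class-wide ratios was not tested further.

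**Figure D4:**
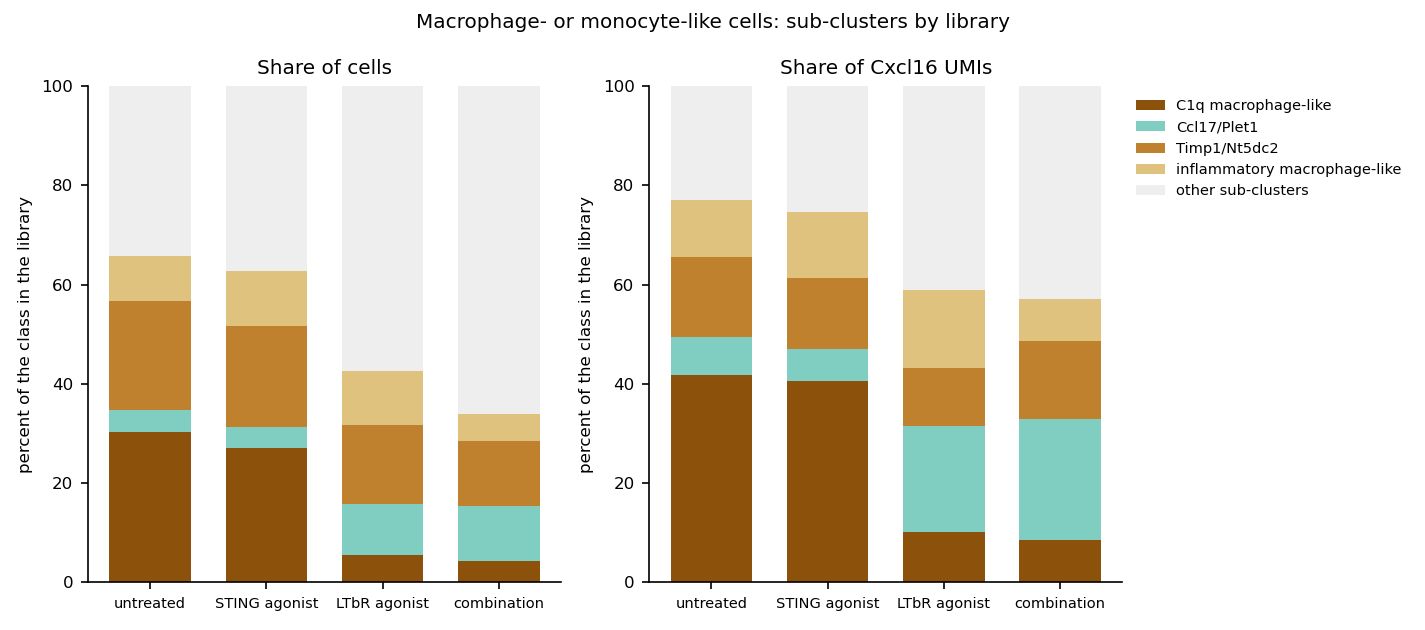
Stacked bars of the percent of macrophage- or monocyte-like cells (left) and of their Cxcl16 UMIs (right) in 4 named sub-clusters and the rest, for each library. C1q macrophage-like cells were the largest part of both in the untreated and STING agonist libraries and a small part in the LTbR agonist and combination libraries.

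Cxcl16 in dendritic-like cells was 679 (659 to 699.6) in the untreated, 749 (713 to 786) in the STING agonist, 549 (525 to 573) in the LTbR agonist and 566 (535 to 599) in the combination library. These gave ratios of 0.14 (0.027 to 0.25), -0.30 (-0.41 to -0.20) and -0.26 (-0.38 to -0.13), the same directions as in macrophage- or monocyte-like cells. Mature dendritic-like cells, named for Fscn1, Cacnb3 and Ccr7, had the highest level of the dendritic sub-clusters with the 4 libraries summed. They stood at 1329, 1222, 906 and 1008 CPM by library. The cDC1-like cells had 257, 292, 344 and 253 CPM, the lowest summed level of the 6 dendritic sub-clusters with at least 100 cells. The STING agonist and combination libraries had 18 and 9 cDC1-like cells.

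Cxcr3 in T-like cells was higher in the STING agonist library and close to untreated in the other 2. Its level was 45.8 (41.8 to 50.1) in the untreated, 87.3 (80.9 to 94.01) in the STING agonist, 52.8 (48.5 to 57.3) in the LTbR agonist and 44.8 (41.1 to 48.8) in the combination library, from 481, 693, 561 and 538 UMIs. Against untreated this came to 0.80 (0.60 to 1.01), 0.17 (-0.038 to 0.38) and -0.025 (-0.23 to 0.18), and only the first had an interval apart from 0. The STING agonist ratio was above that of 99.7% of genes tested. The combination stood at -0.83 (-1.02 to -0.63) against the STING agonist, and differed from the sum of both single log2 ratios by -0.997 (-1.403 to -0.59). With equal weight per cluster the STING agonist ratio was 0.47 and the LTbR agonist ratio -0.13. Neither receptor passed 2-fold against untreated in T-like cells, where 0.142%, 0.0993% and 0.119% of genes were at least 2-fold higher and 0.0607%, 0.248% and 0.0693% lower with the STING agonist, the LTbR agonist and the combination.

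The share of T-like cells with a Cxcr3 UMI was 16.8, 28.5, 17.9 and 18.4%, or 4.03, 9.14, 5.97 and 4.88% at 1000 UMIs per cell. In macrophage- or monocyte-like cells, which should lack the receptor, the thinned shares were 0.03398, 0.0705, 0.0367 and 0.0583% and the level 0.465 to 0.5805 CPM. The STING agonist library was highest by either share. The T-like marker list summed to 5635, 5614, 4629.9 and 5056 CPM in T-like cells, and the macrophage- or monocyte-like list to 869, 874, 808 and 666 CPM.

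Among T-like cells, CD8 cells were those with a Cd8a or Cd8b1 UMI and no Cd4 UMI, and CD4 cells the reverse, a split that depends on the depth of a cell. Cxcr3 in CD8 cells was 26.3, 54.7, 28.03 and 27.6 CPM and in CD4 cells 91.4, 159.6, 83.7 and 66.2 CPM, from 949, 585, 795 and 1004 and 297, 314, 509 and 386 cells. CD4 cells were above CD8 cells in each library. The STING agonist ratio was 0.84 (0.52 to 1.15) in CD8 and 0.74 (0.33 to 1.16) in CD4 cells, intervals that overlap. The combination ratio was 0.052 (-0.26 to 0.36) in CD8 and -0.41 (-0.86 to 0.035) in CD4 cells, and both intervals hold 0.

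Cxcr3 differed widely between T-like sub-clusters. The highest summed levels were 132 CPM in the Il2/Xcl1 sub-cluster, 129 in the Rflnb/Slamf6 sub-cluster, 123 in Th17-like and 118 in regulatory-like cells, and the intervals of these 4 overlap. By library the Il2/Xcl1 sub-cluster had 129, 196, 110.4 and 95.7 CPM and the Rflnb/Slamf6 sub-cluster 128, 168, 93.5 and 133 CPM. Th17-like cells had 83.7, 241, 92.5 and 32.003 CPM in 36, 75, 122 and 35 cells, and regulatory-like cells 102, 131, 108 and 139 CPM. The order was not the same in the libraries, since the Il2/Xcl1 sub-cluster was highest in the untreated and LTbR agonist libraries, Th17-like cells in the STING agonist and regulatory-like cells in the combination library. In the granzyme C-F effector-like cells 0 Cxcr3 UMIs were counted in 113 cells, with an upper limit of 2.59 CPM. The Prf1/Cd8a sub-cluster, the largest with 1773 cells, had 14.9 CPM. With the STING agonist 12 of 14 sub-clusters were above untreated, 4 of them with an interval apart from 0. These were Th17-like cells at 1.42 (0.39 to 2.51), the Csf2/Il21 sub-cluster at 0.83 (0.16 to 1.52), Ly49-expressing cells at 0.64 (0.15 to 1.13) and the Il2/Xcl1 sub-cluster at 0.57 (0.058 to 1.09). With the combination 1 sub-cluster was apart from 0, the interferon-responding cells, at -1.42 (-2.61 to -0.21).

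Outside T-like cells, Cxcr3 was found in plasmacytoid-like and NK-like cells. In plasmacytoid-like cells it was 67.4 (52.9 to 84.6) in the untreated, 88.2 (61.1 to 123) in the STING agonist, 82.7 (61.4 to 109) in the LTbR agonist and 78.2 (50.1 to 116) in the combination library in 110, 35, 69 and 28 cells, and the 4 intervals overlap. In NK-like cells it was 33.6 (25.8 to 42.97) in the untreated, 45.8 (32.7 to 62.4) in the STING agonist, 26.6 (20.96 to 33.4) in the LTbR agonist and 35.1 (26.2 to 46.1) in the combination library. The NK-like ratios were 0.36 (-0.31 to 1.02), -0.25 (-0.77 to 0.28) and 0.051 (-0.55 to 0.65), and each interval holds 0, so a difference was not detectable at this depth.

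Cxcr6 in T-like cells was lower in the LTbR agonist library. Its level was 431 (419 to 444) in the untreated, 478 (463 to 494) in the STING agonist, 327 (316 to 338) in the LTbR agonist and 393 (382 to 405) in the combination library. Set against untreated, the log2 ratios were 0.15 (0.059 to 0.23), -0.39 (-0.48 to -0.30) and -0.13 (-0.21 to -0.049), and 2.74% of genes tested had a lower ratio than Cxcr6 with the LTbR agonist. The LTbR agonist ratio was -0.19 with equal weight per cluster. The STING agonist ratio was 0.27 as a mean of CPM per cell, and the combination ratio came to -0.0038 by that mean and -0.024 with equal weight. The share of T-like cells with a Cxcr6 UMI was 54.95, 60.3, 47.2 and 56.8%, or 27.1, 30.4, 21.6 and 26.6% at 1000 UMIs per cell, against 0.03398, 0.0705, 0.2201 and 0.233% in macrophage- or monocyte-like cells. In NK-like cells the level was 9.06, 13.7, 15.3 and 10.8 CPM, and 12 to 43 UMIs per library.

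Cxcr6 was 533, 524, 446 and 458 CPM in CD8 cells and 337, 469, 260.3 and 301 CPM in CD4 cells, so that CD8 cells were above CD4 cells in each library, the opposite of Cxcr3. In CD8 cells the log2 ratios were -0.023 (-0.13 to 0.081), -0.25 (-0.36 to -0.15) and -0.21 (-0.31 to -0.12). In CD4 cells they were 0.46 (0.23 to 0.70), -0.36 (-0.60 to -0.12) and -0.16 (-0.40 to 0.083). The STING agonist ratio was above 0 in CD4 cells, while its interval held 0 in CD8 cells, and the 2 intervals do not overlap.

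The Prf1/Cd8a sub-cluster, led by perforin and Cd8a, held 58.3, 43.1, 51.8 and 52.5% of the T-like Cxcr6 UMIs with 27.7, 21.6, 19.8 and 25.9% of the cells. Its level was 648, 674, 621 and 600.2 CPM. The highest summed level was in the Cd163l1/Il17a sub-cluster, 817 CPM over the 4 libraries and 660.3, 1207, 586 and 775 CPM by library, with a STING agonist ratio of 0.86 (0.55 to 1.18). Naive-like cells had the lowest summed level among the sub-clusters with at least 100 cells, 18.8 CPM, followed by the Lrmda/Fgf13 sub-cluster at 25.8 CPM and Ly49-expressing cells at 51.6 CPM. Of the 181 naive-like cells 142 came from the combination and 30 from the LTbR agonist library, so this summed level is mostly that of the combination library. Ccr7 and Lef1 were among the leading genes of the sub-cluster. With the LTbR agonist 11 of 14 sub-clusters were below untreated, 3 with an interval apart from 0. Regulatory-like cells, low in Cxcr6, were 8.31, 7.14, 16.1 and 8.29% of T-like cells, and Ly49-expressing cells 11.03, 10.4, 15.03 and 11.9%. Th17-like cells were 1.85, 5.47, 5.82 and 1.74% of T-like cells and held 1.37, 3.71, 6.54 and 1.12% of the Cxcr6 UMIs. The part of the make-up of the T-like class in the class-wide ratios was not tested.

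**Figure D5:**
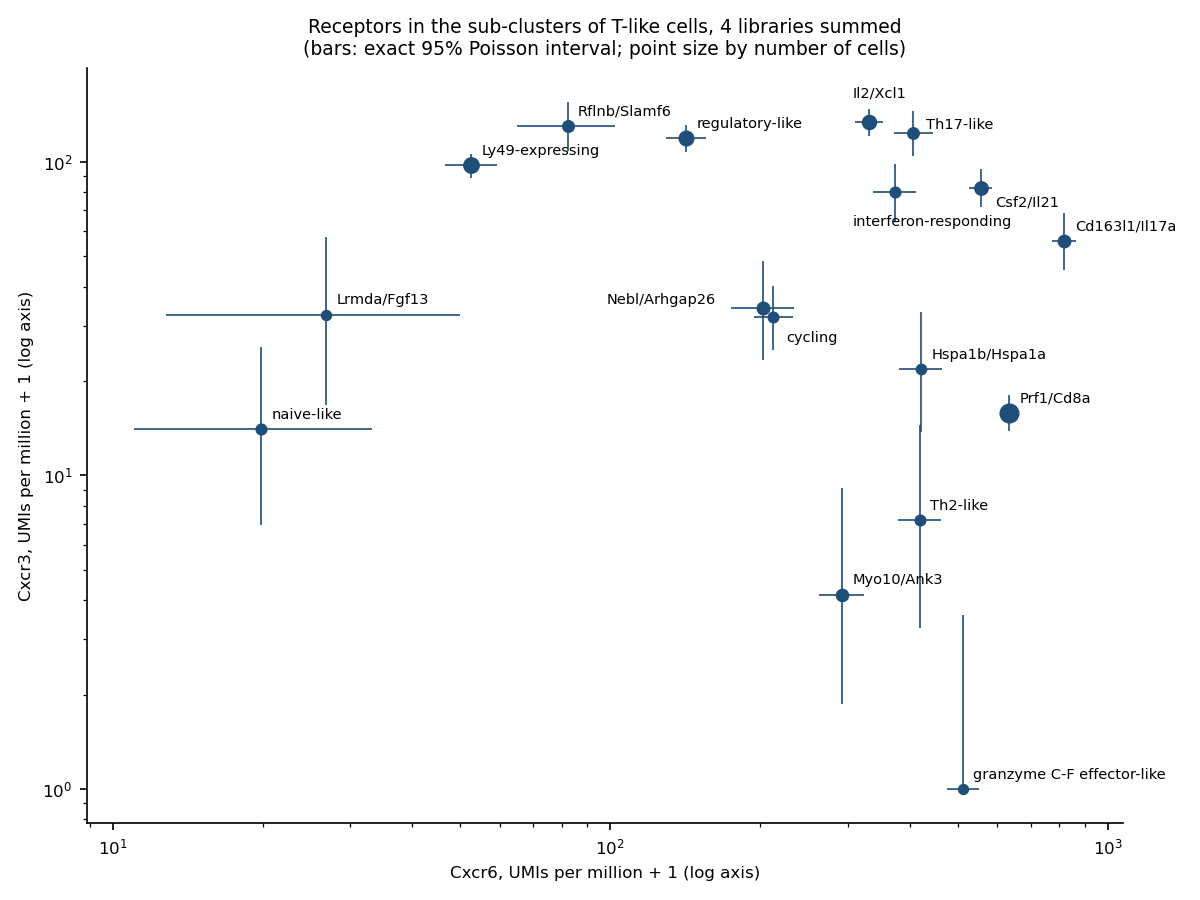
Cxcr6 (x axis) and Cxcr3 (y axis), both in CPM + 1 on log axes, in the T-like sub-clusters with the 4 libraries summed, with exact 95% Poisson intervals and point size by number of cells. Ly49-expressing, Rflnb/Slamf6 and regulatory-like cells were high in Cxcr3 and low in Cxcr6, and granzyme C-F effector-like cells were at 0 Cxcr3 UMIs with Cxcr6 at 511 CPM.

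The ligands and the receptors were also compared cell by cell at 1000 UMIs per cell. Cxcl9 was detected in 20, 29.7, 17.1 and 33.2% of the macrophage- or monocyte-like cells with a Cxcl10 UMI and in 12.1, 18.9, 8.55 and 15.97% of those without. It was detected in 17.05, 28.3, 14.7 and 28.8% of cells with a Cxcl16 UMI and 11.3, 16.7, 8.595 and 15.3% of those without. Cxcl9 was thus more frequent beside either ligand in the 4 libraries. Cxcl10 was detected in 22.05, 24.9, 22.4 and 22.1% of cells with and 23.04, 27.01, 21.8 and 21.3% of cells without a Cxcl16 UMI, values that lie close together. Cxcr3 was detected in 3.72, 6.65, 4.38 and 4.26% of T-like cells with a Cxcr6 UMI and 4.14, 10.2, 6.41 and 5.105% of those without, and the intervals with and without Cxcr6 overlap in each library. In CD8 cells the shares were 2.57, 3.76, 2.81 and 3.56% with and 2.37, 8.15, 4.47 and 3.33% without, and in CD4 cells 7.04, 14.7, 9.57 and 4.29% with and 6.25, 15.2, 8.05 and 6.41% without, with no direction common to the libraries. Cells of a library share their source, so these shares are descriptions of the libraries.

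Across the 26 clusters with the libraries pooled, the genes most like each member were named among 10859 genes, as a description. For Cxcl9 these were Spint1, Fcgr1, Aif1, Batf2 and Cxcl16 (Pearson r from 0.97 to 0.95). For Cxcl10 they were Gbp2, Oas3, Pnp, Itga5 and Ifi204 (Pearson r from 0.89 to 0.86), of which Gbp2, Oas3 and Ifi204 are interferon-induced genes. Cxcl16 was most like Hsd3b7, Anpep, Cxcl9, Basp1 and Renbp (Pearson r from 0.97 to 0.95). Cxcr3 was most like S1pr4, Sh2b1, Tspyl3, Arl2bp and Ngrn (Pearson r from 0.90 to 0.86), led by a sphingosine phosphate receptor of lymphocytes. Cxcr6 was most like Pdcd1, Zdhhc2, Crmp1, B4galnt4 and Cd3g (Pearson r from 0.99 to 0.90), led by the gene of the inhibitory receptor PD-1. The clusters share libraries and differ in depth.

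Of 39 listed genes of the 2 pathways, 38 were in the matrix, and each role is given by the members with at least 50 UMIs in 1 library compared. In macrophage- or monocyte-like cells, 5 of 7 interferon-gamma signal genes were above untreated with the STING agonist, 1 with the LTbR agonist and 6 with the combination, with median log2 ratios of 0.16, -0.17 and 0.12. The medians over all genes tested were 0.0063, 0.0071 and 0.029. None passed 2-fold. Socs1, a feedback inhibitor of cytokine signalling, stood at 88.5, 164, 76.1 and 158 CPM, with log2 ratios of 0.82, -0.19 and 0.77. Irf1, a transcription factor induced by interferon-gamma, had ratios of 0.39, -0.36 and 0.37, the same signs as Cxcl9. Jak2, a receptor-associated kinase, had ratios of -0.17, -0.17 and -0.23.

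Of 8 type I interferon and STING signal genes, 5 were above untreated with the STING agonist, 1 with the LTbR agonist and 2 with the combination, at medians of 0.0035, -0.12 and -0.17. Irf7, which amplifies type I interferon, had ratios of -0.13, -0.40 and -0.36, and the receptor subunit Ifnar2 had 0.0054, -0.28 and -0.25. Tmem173, the gene of STING, had 0.24, -0.19 and 0.073, and Irf3, which acts below it, 0.086, 0.10 and 0.089. Among the further ligands and receptors, Pf4, a platelet chemokine that also binds a form of CXCR3, stood at 74.1, 122, 89.2 and 121 CPM. Its ratios were 0.65, 0.24 and 0.64. The scavenging receptor gene Ackr3 had 0.51, 0.18 and 0.067. Of the proteases, Adam10 had -0.0059, -0.10 and -0.15 and Adam17 0.18, 0.029 and 0.012, while Dpp4, which trims CXCL9 and CXCL10, had -0.073, 0.47 and 0.68. None of these genes passed 2-fold in this class.

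In T-like cells, Ifng, the gene of interferon-gamma, was 321, 334, 181 and 210.3 CPM, with ratios of 0.058, -0.79 and -0.59, so that it was lower in both libraries with the LTbR agonist. Among the 8 genes of that role, 6, 5 and 5 were above untreated with the STING agonist, the LTbR agonist and the combination. Their median log2 ratios were 0.12, 0.11 and 0.043. Over all genes tested in T-like cells the medians were 0.012, -0.011 and -0.040. Socs1 stood at 0.60, 0.23 and 0.36, Ifngr2, a receptor subunit, at -0.11, 0.27 and 0.57 and the kinase Jak1 at -0.10, -0.076 and -0.16. Among the 8 transcription factors of receptor-bearing lymphocytes, 5, 3 and 4 were above untreated, with medians of 0.11, -0.12 and -0.11. Tbx21, the gene of T-bet, a driver of Cxcr3, had ratios of 0.014, -0.48 and -0.53, and Runx3, a factor of cytotoxic and resident T cells, -0.31, -0.19 and -0.54. Klf2 and Tcf7, factors of circulating and memory T cells, had 0.73, 0.013 and 0.36 and 0.31, 0.28 and 0.36. Among the 8 positioning and residence genes, 6, 7 and 6 were above untreated, with medians of 0.14, 0.48 and 0.12. The lymph node homing gene Ccr7 had ratios of 0.38, 0.59 and 0.78. Itga1, an integrin of resident T cells, had -0.10, -0.66 and -0.42. The integrin gene Itgae was the one listed gene past 2-fold in T-like cells, at 1.04 with the LTbR agonist. There 0.0993% of all genes tested were at least 2-fold higher. Itgae was among the leading genes of regulatory-like cells, which were 8.31, 7.14, 16.1 and 8.29% of T-like cells. The part of that make-up in the Itgae ratio was not tested. Among the listed genes in the myeloid classes, Klf2 passed 2-fold in macrophage- or monocyte-like cells, at 1.097 with the LTbR agonist and 2.08 with the combination, and in dendritic-like cells, at 1.16 with the STING agonist and 1.13 with the combination. In neutrophil-like cells Socs1 stood at 1.26 and Runx3 at -1.45 with the STING agonist.

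Over all filtered cells of a library the values join level and class make-up, and some ratios differed from those within a class. Cxcl16 stood at -0.088 (-0.13 to -0.047), -0.60 (-0.64 to -0.56) and -0.74 (-0.78 to -0.69) against untreated, and the combination value was further from 0 than in macrophage- or monocyte-like cells. These cells were 43.8, 38.1, 39.04 and 32.7% of the filtered cells. Cxcr6 stood at 0.44 (0.36 to 0.52), -0.21 (-0.29 to -0.14) and 0.44 (0.37 to 0.52), and its combination value was above 0 while it was below 0 within T-like cells. T-like cells were 28.7, 36.6, 29.3 and 37.8% of the filtered cells. Cxcr3 stood at 0.73 (0.60 to 0.86), 0.15 (0.025 to 0.27) and 0.32 (0.19 to 0.45). Cxcl9 stood at 0.54 (0.48 to 0.59), -0.58 (-0.64 to -0.53) and 0.18 (0.13 to 0.23), and Cxcl10 at 0.18 (0.15 to 0.22), -0.087 (-0.12 to -0.054) and -0.15 (-0.19 to -0.12), with the combination below 0 here and above 0 within macrophage- or monocyte-like cells.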

How the data were processed

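The libraries were made with the 10x Genomics 5′ kit from sorted live CD45+ cells. The deposited UMI counts came from Cell Ranger 7.1.0 on mm10, per the labels, as 1 matrix of 24839 barcodes whose suffix gives the library, and the authors' counts were used as deposited. Total counts per library were 32529174 to 60770280 UMIs. Here cells with 300 to 5000 genes and at most 6% mitochondrial UMIs were kept, as the study's methods state. Cells were normalized to 10000 UMIs and clustered without batch correction (scanpy 1.11.5, 2000 variable genes, 30 principal components, 20 neighbours, leidenalg 0.10.2, resolution 1), leaving out the 5 members, the 38 pathway genes and 640 V(D)J genes. Clusters were named from fixed markers. T-like, macrophage- or monocyte-like and dendritic-like cells were clustered again, and sub-clusters led by the markers of another class were set aside, a choice made after seeing the data. No cell was left out for its own doublet score, since the study's methods state no removal. Groups rich in doublet scores nevertheless entered no class. These were the unnamed cluster led by Areg and Foxp3 and sub-clusters set aside, for which a share of doublet scores over 20% was 1 ground.

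UMIs were summed per class and library. Levels have exact Poisson and shares exact binomial (Clopper-Pearson) 95% intervals, which cover counting error only. Bounds of a ratio combine both intervals. Genes with at least 50 UMIs in 1 of 2 libraries entered the percentages over all genes, where 2-fold counts as a difference of 1 on the log2 scale. Thinning drew 1000 UMIs per cell and left out shallower cells. Genes were named by role, the 2 highest and 2 lowest combination ratios of each, and genes past 2-fold were added after their values were seen. Some genes under that rule are not reported here. The members, lists and comparisons were chosen with earlier results of these data known. The study describes more than one single-cell experiment, and the sources do not state which one this is.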

Additional observations from a re-analysis of the deposited data

Results flagged for a closer look

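Each result below is a difference that ran in opposite directions in 2 settings, and with 1 library per group the difference between the 2 directions was not tested. Cxcl10 in macrophage- or monocyte-like cells was lower with the LTbR agonist in the absence of the STING agonist (-0.071) and higher in its presence (0.13), and the former changed sign to 0.024 as a mean of CPM per cell and 0.23 with equal weight per cluster. Cxcl10 in dendritic-like cells was higher with the STING agonist in the absence of the LTbR agonist (0.98) and lower in its presence (-0.58), and the former was 0.065 with equal weight per cluster. Cxcl10 in neutrophil-like cells was lower with the LTbR agonist in the absence of the STING agonist (-0.63) and higher in its presence (0.63), the latter on 68 cells. Where Cxcl10 in dendritic-like cells is concerned, the Timp1/Cd209a sub-cluster held 76.2, 69.6, 73.5 and 62.97% of the UMIs with 77, 35, 43 and 19 cells.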

How the results depend on the processing

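Across 150 recomputed ratios of the ligands in macrophage- or monocyte-like cells and the receptors in T-like cells, 123 stayed within the counting error, 24 moved beyond it, and 3 of the 130 whose main interval lay apart from 0 changed sign. Of the 20 whose main interval held 0, 4 changed sign. Equal weight for each cluster gave Cxcl9 0.14 (STING agonist), -0.30 (LTbR agonist) and 0.56 (combination), Cxcl10 0.033, 0.23 (sign changed) and 0.51, Cxcl16 -0.16 (LTbR agonist) and 0.076 (combination, sign changed), Cxcr3 0.47 (STING agonist) and -0.13 (LTbR agonist, sign changed), and Cxcr6 0.26, -0.19 and -0.024. The mean of CPM per cell gave Cxcl9 -0.60 (LTbR agonist) and 0.41 (combination), Cxcl10 0.17, 0.024 (sign changed) and 0.081, Cxcl16 -0.58 (LTbR agonist) and -0.50 (combination), and Cxcr6 0.27 (STING agonist) and -0.0038 (combination). Without the cell filter Cxcl9 with the LTbR agonist was -0.41 and Cxcl10 with the STING agonist 0.13, which was 0.15 with classes from the marker score of each cell. Median-of-ratios size factors gave 0.16 for Cxcl10 and -0.38 for Cxcl16 with the combination. The cause was not tested.

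Of 234 recomputed ratios in the other classes, 212 stayed within the counting error, 21 moved, and 3 of the 60 whose main interval held 0 changed sign. Of the 174 whose main interval lay apart from 0, 1 changed sign, Cxcl9 in dendritic-like cells with the combination, at -0.28 under equal weight. Leaving out cells with a doublet score of at least 0.2 and keeping the sub-clusters set aside moved none of these ratios beyond counting error. The former says little about doublets, since groups rich in doublet scores were already in no class. Keeping the sub-clusters set aside was an alternative chosen after seeing the data, as were all alternatives for NK-like Cxcl10 and neutrophil-like Cxcl10 and Cxcl16. Ratios in CD4 and CD8 cells and in sub-clusters were not recomputed. No paired analysis was possible because each group has 1 library, so that the groups share 1 replicate number, and for the same reason no replicate could be left out. Few UMIs per library limit the values of Cxcr3 in NK-like (40 to 75), Cxcr6 in NK-like (12 to 43) and Cxcl16 in neutrophil-like cells (12 to 94).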
